A study of Mus musculus with 4 samples.

Results

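The genes described here encode the proteins of the mitochondrial ribosome. They were found by their symbols, which begin with Mrpl for the large subunit or Mrps for the small subunit, followed by a number. Of 8106 named genes on the array, 47 met this rule, 34 of the large and 13 of the small subunit, measured by 54 cDNA clones. Another 3 clones carried a second gene symbol beside such a name and were left out.

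Hearts came from 6 male mice, 12 to 13 weeks old at sampling, labelled as 1-renin and as wild-type mice of backcross generation N5–6 with the strains 129Ola/C57BL/6J. All had 1 kidney removed, ate food with 0.5 mg Na per g, and received deoxycorticosterone acetate (DOCA), a mineralocorticoid, for 5 weeks from an age of 7 to 8 weeks. Drinking water held 1% NaCl for the 3 mice on high salt and was tap water for the 3 on low salt, so the comparison is of salt intake in DOCA-treated mice and holds no mouse without DOCA. RNA of right and left ventricles with the septum was compared on 4 two-colour arrays, each setting 1 high-salt against 1 low-salt heart: array 1 (pair 1) and array 2 (pair 2) had the dye Cy3 on the high-salt RNA, array 3 (pair 3) and array 4 (pair 2 again) had Cy5 on it. Hearts weighed 120, 128 and 131 mg on high and 107, 108 and 109 mg on low salt. Most clones on the slide come from a mouse embryonic clone set.

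Mitochondria hold their own ribosomes, which translate the few proteins encoded in mitochondrial DNA, all of them core subunits of the respiratory chain and ATP synthase. The ribosomal RNAs come from mitochondrial DNA, whereas every protein of the ribosome is encoded in the nucleus, made in the cytosol and imported. The large subunit joins amino acids, and the small subunit reads the messenger RNA. Cardiac muscle depends on respiration, so its mitochondria need a steady supply of these core subunits. Some of the proteins descend from ribosomal proteins of the bacterial ancestor and others were added in mitochondria.

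Values are log2 ratios as the authors deposited them, read here as high over low salt, so that a negative value means lower in high salt. Base 2 is assumed. This direction is likely, since the array titles word the comparison that way, but it is not settled: over all 8106 genes, arrays of equal dye orientation and different mice correlated at 0.573 and 0.475, and arrays of opposite orientation between -0.335 and -0.0735, the latter for arrays 2 and 4, which hold the same mice with dyes exchanged. Over all 17207 features with values, named or not, arrays of equal orientation correlated at 0.691 and 0.533. Those of opposite orientation lay between -0.614 and -0.344, with arrays 2 and 4 at -0.406. Over the 47 genes, arrays of equal orientation correlated at 0.553 and 0.629, and arrays 2 and 4 at -0.194. These are correlations across genes or features on shared arrays and are given as a description. Some genes kept their sign with dyes exchanged. Col3a1 stood at 1.06, 1.26, 0.84 and 1.18 on arrays 1 to 4, and S100a9 at -1.14, -1.31, -1.94 and -1.07. Both were picked by a small unadjusted limma p as deposited. Of 10 fibroblast markers, 6 lay above 0 on all arrays and 1 below, where 7.01% and 7.75% of all genes did. As the direction is not settled, values are also given with arrays 1 and 2 turned, except for single arrays and single clones. That reading would hold if the table gives Cy5 over Cy3 throughout. If it gave Cy3 over Cy5 throughout, every turned sign would be opposite. Mean ± SD refers to the 3 animal pairs, with arrays 2 and 4 averaged first. In whole ventricles, fewer cells of a type and less RNA per cell cannot be told apart.

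Most genes of the mitochondrial ribosome had mean log2 ratios slightly below 0, and none passed the test. Of the 47, 32 had a mean below 0 and 15 above, against 4066 below and 4040 above among all genes (50.2% below). The median of the 47 gene means was -0.049, against -0.00026 over all genes. The lowest gene mean was -0.34, for Mrpl3, and the highest 0.34, for Mrpl19; turned, these were -0.59, for Mrps18a, and 0.40, for Mrpl35. Limma called 0 of the 47 at an adjusted p under 0.05, as it did for 0% of all genes. The smallest adjusted p among the 47 was 0.86. At an unadjusted p under 0.05, 1 was lower, where 2.63% of all genes were, and 0 were higher, where 2.81% were. With a dye covariate, 6 were lower and 2 higher at that unadjusted threshold, against 545 lower and 643 higher of all 8106 genes. In that fit 0 passed adjustment. Its means equal those of the fit without the covariate, and only the estimated spread differs, from 3 pair values with a further term fitted. The count below 0 was 26 with pair 2 taken from array 2 alone, where 48.7% of all genes were below 0. With pair 2 taken from array 4 alone it was 37, against 52.1% of all genes. With a pair left out it was 29 to 38, against 47.2% to 53.6% of all genes.

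With arrays 1 and 2 turned, 34 of the 47 lay below 0, where 53.3% of all genes did. Limma then placed 12 of the 47 lower and 1 higher at an unadjusted p under 0.05, against 13.8% and 6.97% of all genes, and called 0, as it did for 0% of all genes. The smallest adjusted p was 0.093, shared by Mrpl20, Mrpl28, Mrpl35 and Mrpl45.

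**Figure D1:**
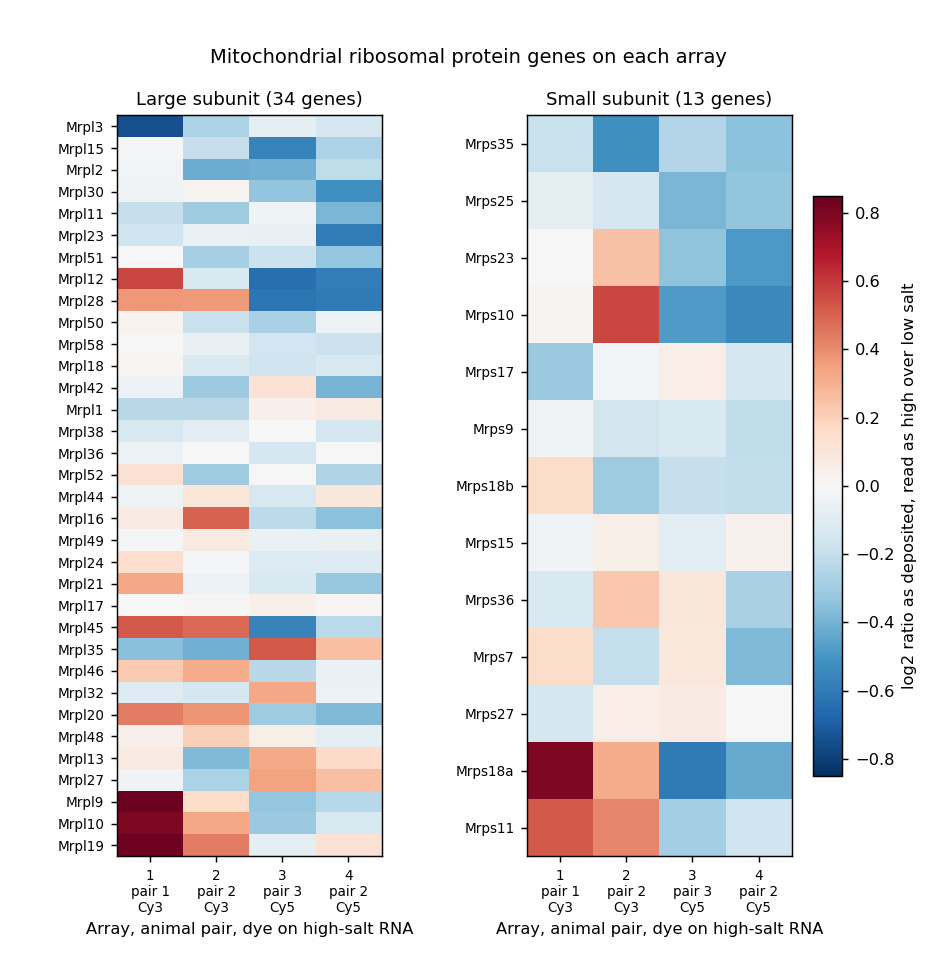
Log2 ratio of each large subunit gene (left, 34 genes) and small subunit gene (right, 13 genes) on the 4 arrays, ordered by the mean over animal pairs from lowest to highest; blue is below 0 and red above 0. Some genes, such as Mrps35, are blue on all arrays, while others, such as Mrps18a and Mrpl28, are red on the arrays with Cy3 on the high-salt RNA and blue on those with Cy5.

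Both subunits had means slightly below 0 as deposited and turned. The mean over the 34 large subunit genes was 0.094, -0.026, -0.13 and -0.17 on arrays 1 to 4. For the 13 small subunit genes it was 0.056, 0.041, -0.19 and -0.27. Both subunit means were thus above 0 on array 1 and lowest on array 4. On array 1 the small subunit mean rested on Mrps18a, at 0.79. Without this gene it was -0.0050, and the median of the 13 genes was -0.027. The large subunit median on array 1 was 0.0024. The means over all genes were 0.059, 0.046, -0.055 and -0.014. By pair, the large subunit stood at 0.094, -0.099 and -0.13 and the small at 0.056, -0.11 and -0.19. The values of pair 2 average an array near 0 and a clearly lower one, though both arrays held the same mice.

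Over the 3 pairs the large subunit mean was -0.045 ± 0.12 (SD, n = 3 pairs) and the small subunit mean -0.082 ± 0.13, each within 1 SD of 0. The mean over all genes was 0.0066 ± 0.058. Large minus small was 0.038, 0.015 and 0.060 in pairs 1 to 3, a mean of 0.038 ± 0.023. On array 2 that difference was -0.067 and on array 4 it was 0.097, so its sign turned between arrays of the same mice. With pair 2 taken from array 2 alone it was 0.010, and from array 4 alone 0.065. With arrays 1 and 2 turned, the subunits stood at -0.099 ± 0.028 and -0.13 ± 0.069, all genes at -0.048 ± 0.016, and large minus small at 0.035 ± 0.064, with pair 1 at -0.038. The median over genes then ran the other way, -0.063 for the large and -0.051 for the small subunit. Relative to the mean of all genes in the same pair, the 47 genes stood at 0.025, -0.12 and -0.091 as deposited and at -0.025, -0.066 and -0.091 turned.

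Genes varied within each subunit. Large subunit gene means ran from -0.34 to 0.34 with quartiles at -0.12 and 0.036, and small subunit gene means from -0.29, for Mrps35, to 0.12, for Mrps11, with quartiles at -0.15 and -0.016. In the small subunit 11 of 13 genes had means below 0, and in the large 21 of 34, against 10 of 13 and 24 of 34 turned. Mrps18a carries a small subunit name but is a protein of the large subunit in the assembled ribosome. Counting it there gave -0.042 for the large and -0.093 for the small subunit as deposited, and -0.11 and -0.096 turned, so that the order of the subunits then depended on the direction.

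**Figure D2:**
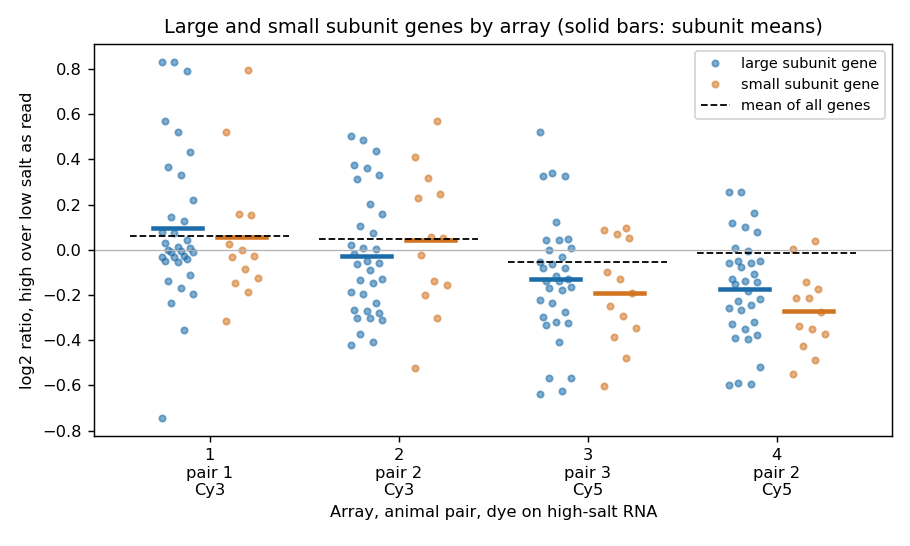
Log2 ratio of each gene (points) on each array, large subunit in blue and small subunit in orange, with solid bars at the subunit means and dashed lines at the mean of all 8106 genes. The bars of both subunits lie above 0 on array 1 and below 0 on arrays 3 and 4, with points of both subunits overlapping over nearly their whole range on every array. On array 1 the bar of the small subunit is above 0 only with Mrps18a counted.

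Lower on all 4 arrays were 11 of the 47 genes, 23.4%, where 7.75% of all genes were. Above 0 on all 4 arrays was 1 gene, 2.13%, where 7.01% were. The 11 were Mrpl2, Mrpl3, Mrpl11, Mrpl15, Mrpl23, Mrpl38, Mrpl51, Mrpl58, Mrps9, Mrps25 and Mrps35. This count rests on the direction as deposited. With arrays 1 and 2 turned, such genes have opposite signs between orientations, and of the 11 Mrpl3, Mrpl11, Mrpl38 and Mrps35 then had means above 0.

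Mrps35, a small subunit protein found in mitochondria and not in bacteria, stood at -0.19, -0.52, -0.25 and -0.35 on arrays 1 to 4. All 4 values lay below 0, and the 2 arrays of pair 2 gave the lowest of them. Its mean was -0.29 ± 0.13 (SD, n = 3 pairs), with a limma adjusted p of 0.86, and turned 0.0089 ± 0.23. It was the 1 gene of the 47 at an unadjusted limma p under 0.05.

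Mrps25, another mitochondria-specific protein of the small subunit, stood at -0.083, -0.14, -0.39 and -0.34. The arrays with Cy5 on the high-salt RNA were lower than those with Cy3. The mean was -0.24 ± 0.15 (limma adjusted p = 0.92), and -0.13 ± 0.24 turned.

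Mrpl2, a protein beside the catalytic centre of the large subunit, stood at -0.026, -0.42, -0.41 and -0.22. Array 1 was near 0 and the other 3 were clearly lower. The mean was -0.25 ± 0.20 (limma adjusted p = 0.93), and -0.094 ± 0.27 turned.

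Mrpl11, part of the region of the large subunit where the translation GTPases dock, stood at -0.19, -0.30, -0.034 and -0.39. Pair 3 was close to 0, and both arrays of pair 2 were lower than the other pairs. The mean was -0.19 ± 0.16 (limma adjusted p = 0.97), and 0.039 ± 0.13 turned.

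Mrpl23, a protein at the exit of the tunnel through which the new chain leaves, stood at -0.17, -0.057, -0.063 and -0.59. Array 4 was far below the rest, including array 2 with the same mice. The mean was -0.19 ± 0.13 (limma adjusted p = 0.94), and -0.055 ± 0.22 turned.

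Mrpl3, a core protein of the large subunit that is shared with bacteria, stood at -0.74, -0.27, -0.081 and -0.14. Pair 1 alone was strongly low. The mean was -0.34 ± 0.35 (limma adjusted p = 0.97), or -0.14 without pair 1, and 0.24 ± 0.44 turned. Mrpl17, the 1 gene above 0 on all arrays, stood at 0.0059, 0.0067, 0.042 and 0.0084, a mean of 0.018 ± 0.020, and 0.012 ± 0.026 turned, so that its sign rests on values next to 0.

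Promoters were read to see what the genes share beyond their names, using the RefSeq windows of assembly GRCm38.p6 that run from 250 bases before to 50 bases after each annotated start. Of the 47 genes, 42 matched by gene ID. Mrpl13, Mrpl15, Mrpl19, Mrpl38 and Mrps35 did not. On both strands 3 motifs were searched: GCATGCGC, a form of the site of nuclear respiratory factor 1 (NRF1), CCGGAAG, the core of sites for ETS factors such as the GA-binding protein, and AAGATGGCG, a form of the YY1 site, whose first letters AAG are also the last of the ETS motif. These factors are known as regulators of nuclear genes for mitochondrial proteins. The NRF1 letters were in 5 of 42 genes (11.9%, against 3.05% of all 27025 genes with a window), the ETS letters in 13 (31.0%, against 9.93%) and the YY1 letters in 6 (14.3%, against 1.64%). At least 1 of the 3 was in 20 of the 42. A match is a description of the letters and says nothing of binding in these hearts.

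Of the 8 matched genes that were lower on all 4 arrays, 3 held the ETS letters (Mrpl3, Mrpl51 and Mrpl58), and 0 held those of NRF1 or YY1. The ETS letters were in 13 of all 42 matched genes, a share near that of the 8. Most genes with these letters were thus not lower on all arrays, and a link was not tested. The stretches before the starts of Mrpl3 (chr9:105053118-105053267, plus strand) and Mrpl51 (chr6:125192050-125192199, plus strand) are shown because both genes stood below 0 on every array and both hold the ETS letters, given in capitals. Mrpl51, a mitochondria-specific protein of the large subunit, stood at -0.0035, -0.28, -0.18 and -0.33, with a mean of -0.16 ± 0.15, and -0.066 ± 0.099 turned.
Mrpl3: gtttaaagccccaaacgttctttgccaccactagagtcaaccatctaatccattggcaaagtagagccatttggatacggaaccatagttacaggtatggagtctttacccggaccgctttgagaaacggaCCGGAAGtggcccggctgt
Mrpl51: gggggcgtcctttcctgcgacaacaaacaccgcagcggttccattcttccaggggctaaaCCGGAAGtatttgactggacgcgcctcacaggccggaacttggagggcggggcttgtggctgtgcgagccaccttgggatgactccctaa
In both, the motif lies on the strand of the gene and ends before the annotated start.

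Some of the 47 genes followed the dye orientation, as many of all genes on the array did. Positive on both arrays with Cy3 on the high-salt RNA and negative on both with Cy5 were 11 of the 47 (23.4%), where 18.7% of all genes were. The opposite was seen in 3 (6.38%), where 12.7% of all genes were. The 11 were Mrpl9, Mrpl10, Mrpl16, Mrpl20, Mrpl28, Mrpl45, Mrpl46, Mrps10, Mrps11, Mrps18a and Mrps23, and the 3 were Mrpl1, Mrpl27 and Mrpl35. Means over pairs of the 11 ran from -0.15, for Mrps23, to 0.19, for Mrpl10, as deposited and from -0.59, for Mrps18a, to -0.21, for Mrpl46, turned. An effect of dye and one of salt in a table whose arrays were not turned cannot be told apart here. The 21 other genes had mixed signs.

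Mrps18a showed the widest gap. It stood at 0.79 and 0.32 on the arrays with Cy3 on the high-salt RNA and at -0.60 and -0.43 on those with Cy5. The mean 0.044 ± 0.70 (limma adjusted p = 1.0) and the turned mean -0.59 ± 0.21 (limma adjusted p = 0.097).

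Mrpl28, a large subunit protein shared with bacteria, stood at 0.37, 0.36, -0.62 and -0.60 on arrays 1 to 4. Arrays of equal orientation were alike, although they held different mice, and the 2 arrays of pair 2 differed by 0.96. The mean was -0.13 ± 0.49, and -0.49 ± 0.13 turned (limma adjusted p = 0.093).

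Mrpl45, which contacts the inner membrane and holds the ribosome to it, stood at 0.52, 0.48, -0.57 and -0.23. Its mean was 0.028 ± 0.55, and -0.48 ± 0.11 turned (limma adjusted p = 0.093). Mrps10, a small subunit protein shared with bacteria, stood at 0.025, 0.57, -0.48 and -0.55. Array 1 was near 0 and the 3 others were far from it, with a mean of -0.15 ± 0.29, and -0.35 ± 0.29 turned (limma adjusted p = 0.24).

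**Figure D3:**
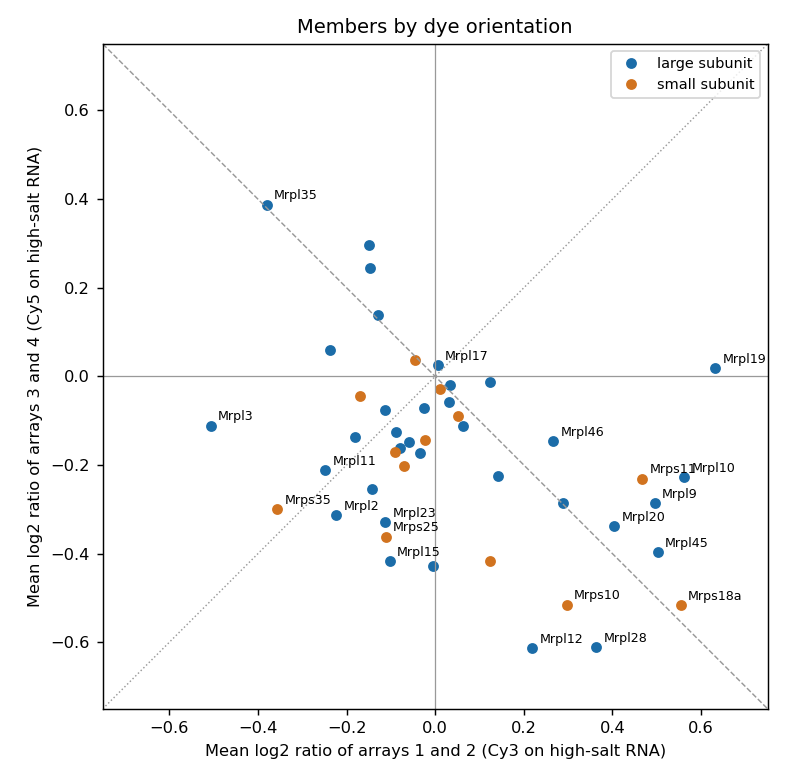
Mean log2 ratio of arrays 1 and 2 (x axis, Cy3 on high-salt RNA) against that of arrays 3 and 4 (y axis, Cy5 on high-salt RNA) for each of the 47 genes, large subunit in blue and small in orange. Genes along the dotted line, such as Mrps35 and Mrpl2 at the lower left, had like ratios in both orientations, and genes along the dashed line, such as Mrps18a at the lower right and Mrpl35 at the upper left, had ratios of opposite sign.

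Mrpl46 and Mrps11, a large and a small subunit gene, are neighbours on chromosome 7 and start head to head. Their RefSeq starts lie on opposite strands, with 41 bases between them. Mrpl46 stood at 0.22, 0.31, -0.24 and -0.057 and Mrps11 at 0.52, 0.41, -0.29 and -0.17 on arrays 1 to 4. Both genes thus had the same sign on each of the 4 arrays, with the larger size in Mrps11. Their means were 0.037 ± 0.24 and 0.12 ± 0.41, and turned -0.21 ± 0.026 (limma adjusted p = 0.13) and -0.37 ± 0.13 (limma adjusted p = 0.11). The pair was singled out after its values and positions had been seen, and 11 of the 47 genes share this sign pattern. The stretch that lies between the 2 starts (chr7:78783090-78783130, plus strand, GRCm38.p6) is shown because it is upstream of both genes.
Mrpl46 and Mrps11: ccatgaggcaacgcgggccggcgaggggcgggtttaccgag
None of the 3 motifs lies in it, which says only that these letters are not in this window. The YY1 letters in the window of Mrps11 begin 108 bases before its start, on the other side of the start of Mrpl46.

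All of the 11 genes positive with Cy3 and negative with Cy5 matched a promoter, and the NRF1, ETS and YY1 letters were each in 2. Among all 42 matched genes they were in 5, 13 and 6. The NRF1 letters were those of Mrpl9 and Mrpl10, which are shown with the motif in capitals because their ratios ran alike. Mrpl17, Mrpl32 and Mrps18b also hold the NRF1 letters and had other sign patterns. A link between motif and ratio was not tested. Mrpl9 stood at 0.83, 0.16, -0.33 and -0.24 and Mrpl10, a protein at the base of the stalk that recruits translation factors, at 0.79, 0.33, -0.32 and -0.14. The stretches lie before the starts at chr3:94443186-94443335 and chr11:97041432-97041581, both on the plus strand of GRCm38.p6.
Mrpl9: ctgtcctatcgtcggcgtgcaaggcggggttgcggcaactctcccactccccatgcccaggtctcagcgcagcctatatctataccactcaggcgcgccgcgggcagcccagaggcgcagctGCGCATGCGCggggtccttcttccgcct
Mrpl10: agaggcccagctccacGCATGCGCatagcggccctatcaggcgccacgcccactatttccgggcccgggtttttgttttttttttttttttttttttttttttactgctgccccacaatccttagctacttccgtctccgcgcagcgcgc
In Mrpl9 the 10 capitals hold the motif on both strands, overlapping itself. The means were 0.15 ± 0.60 for Mrpl9 and 0.19 ± 0.56 for Mrpl10, and turned -0.45 ± 0.33 and -0.45 ± 0.30.

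Genes with a role beyond the ribosome core were also read whatever their values. Mrpl12, the stalk protein that binds translation factors and is also known to bind the mitochondrial RNA polymerase, stood at 0.57, -0.13, -0.64 and -0.59. Only pair 1 was above 0. The mean was -0.14 ± 0.63, or -0.50 without pair 1 and 0.10 without pair 3, and -0.48 ± 0.22 turned (limma adjusted p = 0.12).

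Mrpl58, a peptidyl-tRNA hydrolase built into the large subunit that frees stalled chains, stood at -0.0012, -0.065, -0.16 and -0.18. All values were at or below 0 and small, with a mean of -0.096 ± 0.085, and -0.074 ± 0.084 turned. Mrps18b, one of the relatives of bacterial S18, stood at 0.16, -0.30, -0.19 and -0.21. Array 1 was above 0 and the other arrays below, with a mean of -0.097 ± 0.22 and -0.10 ± 0.13 turned, while its relative Mrps18a followed the dye orientation.

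Mrps15, which binds the ribosomal RNA of the small subunit, stood at -0.032, 0.052, -0.098 and 0.039, a mean of -0.028 ± 0.072, and -0.024 ± 0.067 turned. Mrps36, now known mainly as a subunit of the 2-oxoglutarate dehydrogenase complex of the tricarboxylic acid cycle, stood at -0.13, 0.23, 0.097 and -0.28. Its 2 arrays of pair 2 had opposite signs and cancelled, with a mean of -0.017 ± 0.11, and -0.0096 ± 0.21 turned. The limma adjusted p of all 5 genes rounded to 1.0 as deposited.

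The order of genes shared with bacteria and mitochondria-specific genes depended on the direction of the table. By number, symbols up to Mrpl36 and Mrps21 have a bacterial counterpart. The 31 such genes had a mean of -0.043 ± 0.14, with 19 of 31 below 0, and the 16 mitochondria-specific ones -0.078 ± 0.079, with 13 of 16 below 0. Turned, they stood at -0.12 ± 0.025, with 22 of 31 below 0, and at -0.081 ± 0.066, with 12 of 16 below 0. In the small subunit the 5 mitochondria-specific genes (Mrps23, Mrps25, Mrps27, Mrps35 and Mrps36) all had means below 0, at -0.14 ± 0.030 together, against -0.045 ± 0.19 for the other 8. Turned, the order was opposite, at -0.062 ± 0.15 against -0.18 ± 0.025. Mrps36 was counted with the small subunit by its symbol, here and throughout.

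Clones of 1 gene often differed in the array pattern even where their means were close. Of the 47 genes, 40 were read by 1 clone and 7 by 2. The 2 clones of Mrpl15, a large subunit protein shared with bacteria, had means of -0.30 and -0.24. By array they stood at 0.29, -0.059, -1.11 and -0.093 for one and -0.32, -0.33, -0.022 and -0.44 for the other. The low value of pair 3 thus came from 1 clone. Mrpl23 is another such case, with 1 clone at -0.53, -0.28, 0.080 and -0.36 and the other at 0.20, 0.17, -0.21 and -0.83, so that neither clone was below 0 on all arrays though their average was. For Mrps7, a small subunit protein that binds ribosomal RNA, the clones had the same sign on 1 of 4 arrays. For Mrps27, a mitochondria-specific protein of the small subunit, they did on 3 of 4. Mrpl48 had means of -0.040 and 0.14 in its clones, Mrpl50 -0.12 and -0.12, and Mrps17 -0.12 and -0.11. The SD of 0.0094 over pairs for Mrpl48 therefore describes an average of unlike clones.

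The highest mean as deposited belonged to Mrpl19, a large subunit protein shared with bacteria, at 0.83, 0.43, -0.083 and 0.12 on arrays 1 to 4. Pair 1 was far above the others, and the mean was 0.34 ± 0.46, but -0.36 ± 0.41 turned. Mrpl35, another of these, was 1 of the 3 genes negative with Cy3 and positive with Cy5, where 11 had the opposite pattern. It stood at -0.35, -0.41, 0.52 and 0.25, with a mean of 0.031 ± 0.45 and 0.40 ± 0.10 turned (limma adjusted p = 0.093). Mrpl20 stood at 0.43, 0.37, -0.30 and -0.38, with a turned mean of -0.37 ± 0.068. Mrpl27, near the catalytic centre, had a mean of 0.10 ± 0.21 (0.21 ± 0.16 turned), and Mrpl32, which is matured by the m-AAA protease before it joins the ribosome, 0.040 ± 0.25 (0.16 ± 0.15 turned). Mrpl30 was low on the arrays with Cy5 on the high-salt RNA, at -0.34 and -0.52, and near 0 on the others, a mean of -0.21 ± 0.16, and -0.19 ± 0.20 turned. Means of the remaining genes not given above (Mrpl1, Mrpl13, Mrpl16, Mrpl18, Mrpl21, Mrpl24, Mrpl36, Mrpl38, Mrpl42, Mrpl44, Mrpl49, Mrpl52, Mrps9 and Mrps23) lay between -0.15, for Mrps23, and 0.099, for Mrpl13, and turned between -0.24, for Mrpl16, and 0.17, for Mrpl13.

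Of the other proteins of this ribosome, whose symbols do not begin with Mrp, 2 were measured. Dap3, a GTP-binding protein of the small subunit, stood at -0.21, -0.25, -0.13 and -0.036, below 0 on all arrays with a mean of -0.16 ± 0.040 (limma adjusted p = 0.91), but 0.061 ± 0.18 turned. Gadd45gip1, a large subunit protein, stood at 0.013, 0.86, -0.17 and 0.049, a mean of 0.10 ± 0.32, and -0.20 ± 0.20 turned. The factors that work with the ribosome were mostly below 0 as deposited too, where 50.2% of all genes were, and none passed. Of 9 translation factors 7 were below 0, with a mean of -0.077 ± 0.096, among them Oxa1l, the insertase that receives the new chains, at -0.20 ± 0.15 and Gfm1, an elongation factor, at -0.28 ± 0.28. Of 15 ribosome assembly factors 12 were below 0, with a mean of -0.098 ± 0.13, including Mrm3, which methylates the large ribosomal RNA, at -0.33 ± 0.20, and Mettl17, which serves small subunit assembly, at -0.18 ± 0.11.

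Of 13 genes that charge mitochondrial tRNAs 11 were below 0, with a mean of -0.10 ± 0.15. Of 13 genes of mitochondrial DNA expression 9 were below 0, at -0.063 ± 0.047, with Twnk, the replicative helicase, at -0.24 ± 0.097. Of 8 regulators of mitochondrial biogenesis 7 were below 0, at -0.13 ± 0.20, with the growth regulator Myc at -0.42 ± 0.28, and of 8 mitochondrial chaperones and proteases 7 were below 0, at -0.14 ± 0.059, with Clpp, the matrix protease, at -0.41 ± 0.070 (limma adjusted p = 0.65). Oxidative phosphorylation subunits encoded in the nucleus, which join the products of this ribosome in the same complexes, had 51 of 59 below 0, at -0.14 ± 0.098. Of the 59, 18 were below 0 on all arrays, where 7.75% of all genes were. Turned, 33 of the 59 had means below 0, where 53.3% of all genes did. Among these subunits were Ndufa12 of complex I, at -0.39 ± 0.059 (limma adjusted p = 0.65), and the complex II flavoprotein Sdha, at -0.38 ± 0.12 (limma adjusted p = 0.83). Cytosolic ribosomal proteins lay close to 0, with -0.0031 ± 0.089 for 43 large and -0.012 ± 0.15 for 23 small subunit genes. With arrays 1 and 2 turned, the oxidative phosphorylation subunits stood at 0.0021 ± 0.094, translation factors at -0.010 ± 0.11 and genes of mitochondrial DNA expression at 0.051 ± 0.052, while assembly factors stood at -0.10 ± 0.12 and tRNA charging genes at -0.13 ± 0.11. Biogenesis regulators stood at -0.17 ± 0.16 turned and chaperones and proteases at -0.0030 ± 0.18, with 4 of 8 below 0, and cytosolic ribosomal proteins at 0.00091 ± 0.049 (large) and 0.025 ± 0.074 (small). Of the genes named from these lists, Oxa1l (0.12 ± 0.17), Gfm1 (0.19 ± 0.40), Mettl17 (0.029 ± 0.24), Twnk (0.039 ± 0.27), Myc (0.088 ± 0.57), Ndufa12 (0.055 ± 0.39) and Sdha (0.19 ± 0.39) were above 0 when turned. Mrm3 (-0.14 ± 0.41) and Clpp (-0.19 ± 0.53) were below. No difference between these lists was tested.

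**Figure D4:**
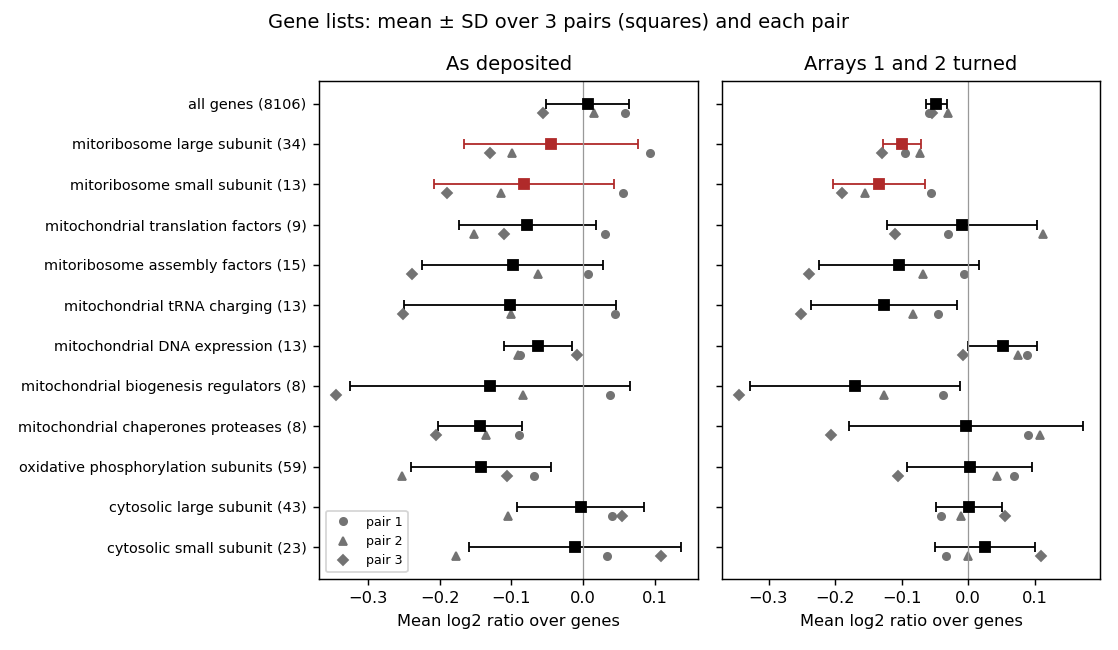
Mean log2 ratio over the genes of each list (number of genes in brackets), as squares with bars of 1 SD over the 3 animal pairs and as a grey symbol for each pair, as deposited (left) and with arrays 1 and 2 turned (right). Both mitoribosome subunits (red) lie left of 0 in both panels, with bars that cross 0 on the left, whereas oxidative phosphorylation subunits are left of 0 as deposited and at 0 when turned.

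Markers of other cell types in the ventricle differed in direction, and none passed the test. A log ratio holds no level, so the tissue itself could not be checked by its markers, and of the cardiomyocyte markers only Ryr2 was measured, at 0.054 ± 0.14. Fibroblast markers had 9 of 10 above 0, at 0.50 ± 0.062, and -0.024 ± 0.50 turned. Leukocyte markers had 3 of 4 below 0, at -0.36 ± 0.11. Their gene means ran from -1.42 ± 0.45, for S100a9 (-0.23 ± 1.57 turned), to 0.45, so the list mean rests largely on 1 gene. Endothelial markers had 2 of 4 below 0, at 0.13 ± 0.21, smooth muscle and pericyte markers 3 of 3 above 0, at 0.17 ± 0.075, and adipocyte markers 2 of 4 below 0, at 0.094 ± 0.10, and the 1 blood marker, Alas2, stood at 0.0048 ± 0.10. These directions rest on the table as deposited: turned, leukocyte markers stood at 0.038 ± 0.42, endothelial at -0.21 ± 0.086, smooth muscle and pericyte at 0.018 ± 0.13, adipocyte at 0.073 ± 0.12, Alas2 at -0.020 ± 0.16 and Ryr2 at 0.14 ± 0.084. Of the 4 endothelial genes 2 were below 0 when turned, with a median of 0.053, so that list mean does not describe each gene. The part of these markers in the values of the ribosomal genes was not tested.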

How the data were processed

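Two-colour printed cDNA arrays compared 3 high-salt with 3 low-salt hearts in 3 animal pairs, with pair 2 on 2 arrays of exchanged dye. For every array the authors deposited a table of log ratios, read here as log2. Base, direction, background correction and normalization: not given in the sources used here. Of 17664 features, 17207 had values, on all 4 arrays. Names came from the platform annotation, and clones of 1 symbol were averaged, giving 8106 genes. All 47 gene IDs were found in RefSeq (GRCm38.p6) under the same symbols. Pair ratios were tested against 0 across all genes with limma 3.58.1 in R 4.3.3 (intercept, eBayes, Benjamini-Hochberg at 0.05), checked on simulated data. The simulated pairs were independent and held no dye effect, so that check does not cover the dye pattern of these arrays. The labels give each mouse its own number, so pairs are separate animals. The number of arrays limits the precision, and no intensities were used, so no filter on dim spots was possible. Subunit and list means carry no test.

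The genes, lists and naming rule were chosen with earlier results of these data known. Named were up to 6 genes per direction of 1 sign on all arrays by unadjusted p, up to 4 of opposite sign between orientations, those with 3 or more clones (0 were found), and genes of set roles, with up to 2 per mitochondrial list. Mrps30, Mrps18c and Mrps12, also set, were not analysed here. Further genes were named after their values were seen. Alternatives were the array direction, each pair left out, 1 array of pair 2, scaling, centring, a dye covariate, and the treatment of clones and subunits.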

Additional observations from a re-analysis of the deposited data

Results flagged for a closer look

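Across the 4 arrays, Mrpl17 had 1 value apart from the rest: array 3 at 0.042 against 0.0059, 0.0067 and 0.0084 on the others, a gap of 0.93 of the range, above Dixon's critical value for 4 samples. All 4 values are close to 0. Chance sets about 1 in 20 groups apart in this way, and this was 1 of 50 tested (the 47 genes, both subunits and the 47 together). Arrays 2 and 4 hold the same mice.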

How the results depend on the processing

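The precision rests on 3 pairs. The median gap between the arrays of pair 2, which held the same mice, was 0.195 over the 47 genes and 0.195 over all genes. The median SD over pairs was 0.187 over the 47 genes and 0.150 over all genes. A gap between 2 arrays and an SD over 3 pairs are unlike measures. Dim spots could not be filtered without intensities. Every ratio already pairs 1 mouse with another, so no further block was fitted. Under all 10 alternatives and with clones in place of genes, 0 genes and 0 of the ribosomal genes passed. The subunit means stayed below 0 under every alternative run. Large minus small stayed above 0 when 1 choice was changed at a time, but not when the turned direction was joined with medians over genes (-0.063 large, -0.051 small) or with subunits by structure (-0.11 large, -0.096 small). With a pair left out the large subunit mean lay between -0.11 and -0.0022 (without pair 3), the small between -0.15 and -0.029 and their difference between 0.027 and 0.049. The difference moved by over 1 SD with pair 2 from array 2 (0.010) or array 4 (0.065). By construction the dye covariate and the median over clones left the means of the ribosomal genes and subunits unchanged and could turn no sign. Of 160 values of the 16 named genes, with both of these alternatives counted, 18 turned sign. With arrays 1 and 2 turned these were Mrpl3 (0.24), Mrpl11 (0.039), Mrps35 (0.0089), Mrpl45 (-0.48) and Mrps18a (-0.59). With pair 2 from array 2 they were Mrpl28 (0.035), Mrps10 (0.038) and Mrps36 (0.067), and from array 4 Mrpl45 (-0.091) and Mrps18a (-0.079). With a pair left out, values ran from -0.50 to 0.10 for Mrpl12, -0.37 to 0.12 for Mrpl28, -0.22 to 0.32 for Mrpl45, -0.24 to 0.017 for Mrps10, -0.065 to 0.0070 for Mrps15, -0.33 to 0.37 for Mrps18a and -0.075 to 0.037 for Mrps36. The cause was not tested.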
